A study of Mus musculus with 24 samples.

Results

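Cbr2, Nos3 and Wfdc21 were followed across all 8 groups of an RNA-seq series. They are 3 of the 24825 genes listed in each library, taken by name and chosen by their FPKM at day 7 because they fell in Cre-labelled libraries or rose most with full-length NFIA at day 7. The cells were stromal vascular fraction (SVF) cells, the non-adipocyte cells of a fat depot that include adipocyte precursors, from inguinal white adipose tissue of mice with floxed Nfia alleles. All groups share these alleles and immortalisation with SV40 large T antigen. NFIA belongs to the nuclear factor I proteins, which bind DNA and control transcription. The design asks which genes change when Nfia is targeted and whether full-length NFIA, or a mutant without a proline-rich part of its activation domain, brings them back.

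The ctrl cells received an empty retroviral vector, and the cells labelled Cre received Cre recombinase. Cre + NFIA cells carried, beside Cre, the whole NFIA protein with a FLAG tag. Cre + NFIA Δpro#3 cells carried the FLAG-tagged mutant instead, in both cases from a retroviral vector that expresses NFIA at levels set by the vector. Each cell type was sampled before induction (day 0) and at day 7 of differentiation, which was induced with insulin, dexamethasone, indomethacin, triiodothyronine, isobutylmethylxanthine and rosiglitazone, an agonist of the adipocyte regulator PPARγ. There were 3 replicates a group and 24 libraries in all, and the labels do not say that replicates came from separate cultures, so the spread between them may be technical. Library totals were 7732829 to 14622189 reads. The gene-level Nfia value was 5.34 to 6.81 FPKM in Cre-labelled libraries and 6.23 to 6.75 FPKM in ctrl at day 0, and 9.49 to 10.7 against 9.15 to 9.81 FPKM at day 7. It therefore does not check the Cre label. The floxed exon is only a part of the gene, and its own reads were not examined. For Cre-expressing cells the paper reported efficient recombination by PCR of genomic DNA, with NFIA mRNA and protein almost completely lost. With either NFIA vector the gene-level Nfia value was 59.7 to 111 FPKM.

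The 3 genes encode unrelated proteins. Cbr2 encodes carbonyl reductase, an NADPH-dependent enzyme of the short-chain dehydrogenase family that is abundant in lung mitochondria and was also cloned as an adipocyte protein. Nos3 encodes endothelial nitric oxide synthase, which makes nitric oxide from arginine with tetrahydrobiopterin as cofactor and is linked to mitochondrial biogenesis in brown adipocytes. Wfdc21 encodes a small secreted protein of the whey acidic protein family and is described as an adipokine.

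On the mm9 assembly (NCBIM37, GENCODE vM1) Cbr2 lies on the minus strand at chr11:120590803-120593428. Nos3 lies on the plus strand at chr5:23870628-23890292, where it overlaps Atg9b, a gene of the opposite strand. Wfdc21, which that annotation names 1100001G20Rik, lies on the plus strand at chr11:83560442-83566144. Values are FPKM, that is, counted fragments scaled to 1000000 a library and to a kilobase of the gene, so levels can be compared between genes. The gene lengths used were 1021 bases for Cbr2, 4123 for Nos3 and 438 for Wfdc21, so 1 FPKM of Wfdc21 rests on the fewest reads.

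RefSeq's promoter table (GRCm38.p6, another build than that of the files) held 1 of the 3 genes, Cbr2. Its 250 bases upstream of the start are shown with those of Dcxr, the neighbour and relative of Cbr2 that starts at -4.83 kb (toward lower coordinates) and had another pattern of expression. Capitals mark TTGGC or its complement GCCAA, the core bound by nuclear factor I proteins. Both sequences are on the minus strand, at chr11:120732022-120732271 for Cbr2 and chr11:120727285-120727534 for Dcxr.
Cbr2: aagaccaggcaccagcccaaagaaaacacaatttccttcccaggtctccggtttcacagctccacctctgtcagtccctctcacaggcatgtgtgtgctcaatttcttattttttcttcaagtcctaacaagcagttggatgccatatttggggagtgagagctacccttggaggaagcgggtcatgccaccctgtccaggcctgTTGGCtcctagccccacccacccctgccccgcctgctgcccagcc
Dcxr: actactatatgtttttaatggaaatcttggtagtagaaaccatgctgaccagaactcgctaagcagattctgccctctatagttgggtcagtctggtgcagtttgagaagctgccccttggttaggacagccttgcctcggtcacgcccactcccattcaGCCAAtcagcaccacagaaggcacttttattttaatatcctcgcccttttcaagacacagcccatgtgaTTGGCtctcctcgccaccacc
The Cbr2 window held this core 1 time, 45 bases before the start, and the Dcxr window held it 2 times. With both strands searched, 41.6% of 32536 promoter windows of this length held it, so its presence sets neither gene apart. Neither window held the palindrome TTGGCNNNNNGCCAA, the nuclear receptor core AGGTCA or its repeat AGGTCANAGGTCA, which were found in 0.0369%, 14.04% and 0.0338% of windows.

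At day 7 Cbr2 was high in Cre + NFIA, intermediate in ctrl and low in the other cell types. The ctrl libraries held 34.5, 51.9 and 51.1 FPKM, and the Cre-labelled libraries 2.86, 3.64 and 2.48 FPKM. With full-length NFIA it was 179.4, 179.3 and 197.1 FPKM, and with the Δpro#3 mutant 2.27, 2.75 and 2.78 FPKM. The Cre + NFIA libraries stood above all others and the ctrl libraries above the remaining 6, while Cre-labelled libraries and Cre + NFIA Δpro#3 overlapped. The mean was 15.3-fold lower in Cre-labelled libraries than in ctrl and 61.9-fold higher in Cre + NFIA than in Cre-labelled libraries. It was also 4.04-fold higher in Cre + NFIA than in ctrl, so full-length NFIA took Cbr2 past the ctrl level.

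Nos3 followed the same order at a lower level. It was 15.1, 18.2 and 17.96 FPKM in ctrl, 1.07, 0.715 and 0.637 FPKM in Cre-labelled libraries, 30.4, 29.2 and 31.0 FPKM in Cre + NFIA, and 0.0624, 0.441 and 0.382 FPKM with the mutant. None of these groups overlapped at day 7. The ctrl mean was 21.1-fold that of Cre-labelled libraries, and the Cre + NFIA mean was 37.4-fold that of Cre-labelled libraries and 1.77-fold that of ctrl. The mutant group rested on 45 reads of Nos3 over its 3 libraries and the Cre-labelled libraries on 109, so the 2.74-fold lower mean with the mutant had a 95% counting interval of 1.92 to 3.97, which covers counting error only.

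Wfdc21 showed the widest gap between full-length NFIA and ctrl. It was 22.1, 21.3 and 24.6 FPKM in ctrl, 2.28, 4.49 and 1.03 FPKM in Cre-labelled libraries, 123.2, 143.8 and 118.2 FPKM in Cre + NFIA, and 0.587, 0.566 and 1.08 FPKM with the mutant. The Cre + NFIA mean was 5.66-fold that of ctrl and 49.3-fold that of Cre-labelled libraries, and the ctrl mean was 8.71-fold that of Cre-labelled libraries. Libraries labelled Cre varied most for this gene and overlapped the mutant libraries, which held 12 reads of it in all.

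**Figure D1:**
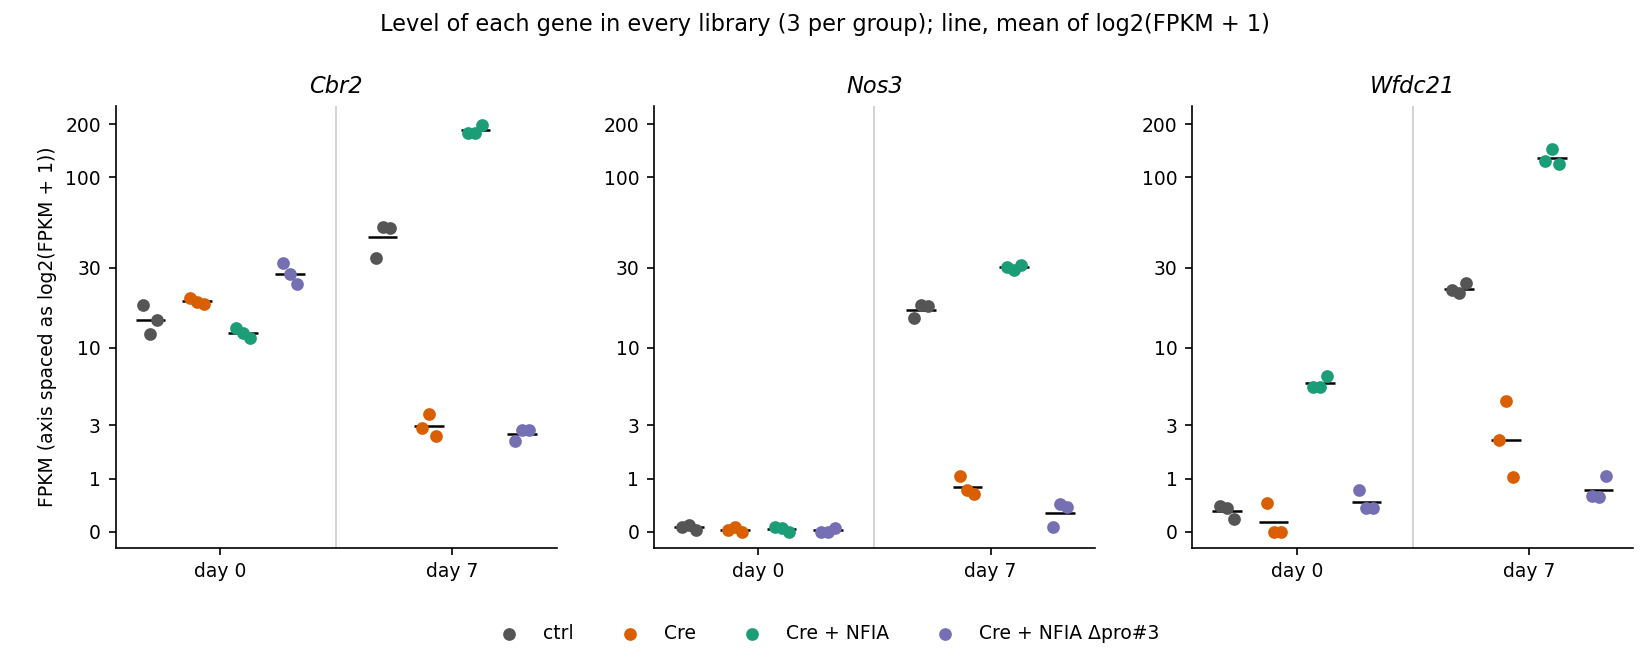
FPKM of Cbr2, Nos3 and Wfdc21 in each of the 24 libraries, on an axis spaced as log2(FPKM + 1), by day and cell type, with black lines at the mean of log2(FPKM + 1) of each group. At day 7 the Cre + NFIA libraries are highest for each gene and ctrl second, and at day 0 Wfdc21 is above 5 FPKM in the Cre + NFIA libraries alone.

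These day 7 values of ctrl, Cre and Cre + NFIA chose the genes and are given without a test. On the log2(FPKM + 1) scale Cbr2, Nos3 and Wfdc21 held ranks 1, 3 and 11 among falls of Cre against ctrl over the 12640 genes tested, with differences of -3.54, -3.32 and -2.83. In that comparison 1.51% of genes were called and 1.27% were lower by at least 3-fold at an adjusted p under 0.05. The genes next in rank were Cox8b (-3.52) and Ces1d (-3.27) beside Cbr2 and Nos3, and Elovl3 (-2.83) and Chchd10 (-2.80) on either side of Wfdc21. For Cre + NFIA against Cre the ranks from the highest were 2, 9 and 3, with differences of 5.55, 4.12 and 5.28, where 3.63% of genes were called and 2.13% were called higher. Cox8b (6.59) stood above Cbr2, Ces1d (5.26) below Wfdc21, and Ppp1r1a (4.28) and Ces1f (3.92) on either side of Nos3. Genes tested were those at 1 FPKM or more in at least 3 libraries. Cbr2 reached that level in 24 libraries, Wfdc21 in 13 and Nos3 in 7, all of them at day 7, so Nos3 was tested only because it is high there.

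Adipocyte marker levels at day 7, like those of the 3 genes, were higher in ctrl and Cre + NFIA than in the other cell types. The summed FPKM of 18 adipocyte markers was 26572 to 30946 in ctrl, 5240 to 11177 in Cre-labelled libraries, 26967 to 27342 in Cre + NFIA and 1100 to 2600 with the mutant at day 7. Sums of 11 precursor markers ran the other way, at 605 to 696 FPKM in ctrl and Cre + NFIA and 1252 to 1695 FPKM in the other cell types. Fewer adipocytes and less of an RNA in each adipocyte cannot be told apart in such bulk samples, and the part of this difference in the levels of the 3 genes was not tested. The markers were 2.27- to 6.61-fold higher in ctrl than in Cre-labelled libraries, with a median of 3.29, and 2.25- to 7.62-fold higher in Cre + NFIA than in Cre-labelled libraries. The 3 genes were picked for large differences in these same comparisons, so their larger ratios follow from the choice and say nothing of the part of the adipocyte difference.

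Ratios between Cre + NFIA and ctrl, groups with like marker sums, were 0.771 (Cidec) to 1.84 (Dgat2) for the markers, with a median of 1.03. Cbr2 at 4.04-fold and Wfdc21 at 5.66-fold lay above that range and Nos3 at 1.77-fold within it. Day 7 values of both groups took part in the choice of the genes, which favours a large ratio here too. A different order held for the mutant. All 18 markers were lower with the mutant than in Cre-labelled libraries, by 2.49- to 5.91-fold, while Cbr2 was 1.15-fold lower, with a 95% counting interval of the pooled ratio of 0.846 to 1.52. Nos3 at 2.74-fold and Wfdc21 at 3.50-fold lay within the span of the markers. The Cre-labelled libraries in this comparison took part in the choice of the genes. A gene chosen for low values there is less likely to be lower still with the mutant, and how far this holds for Cbr2 was not tested.

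**Figure D2:**
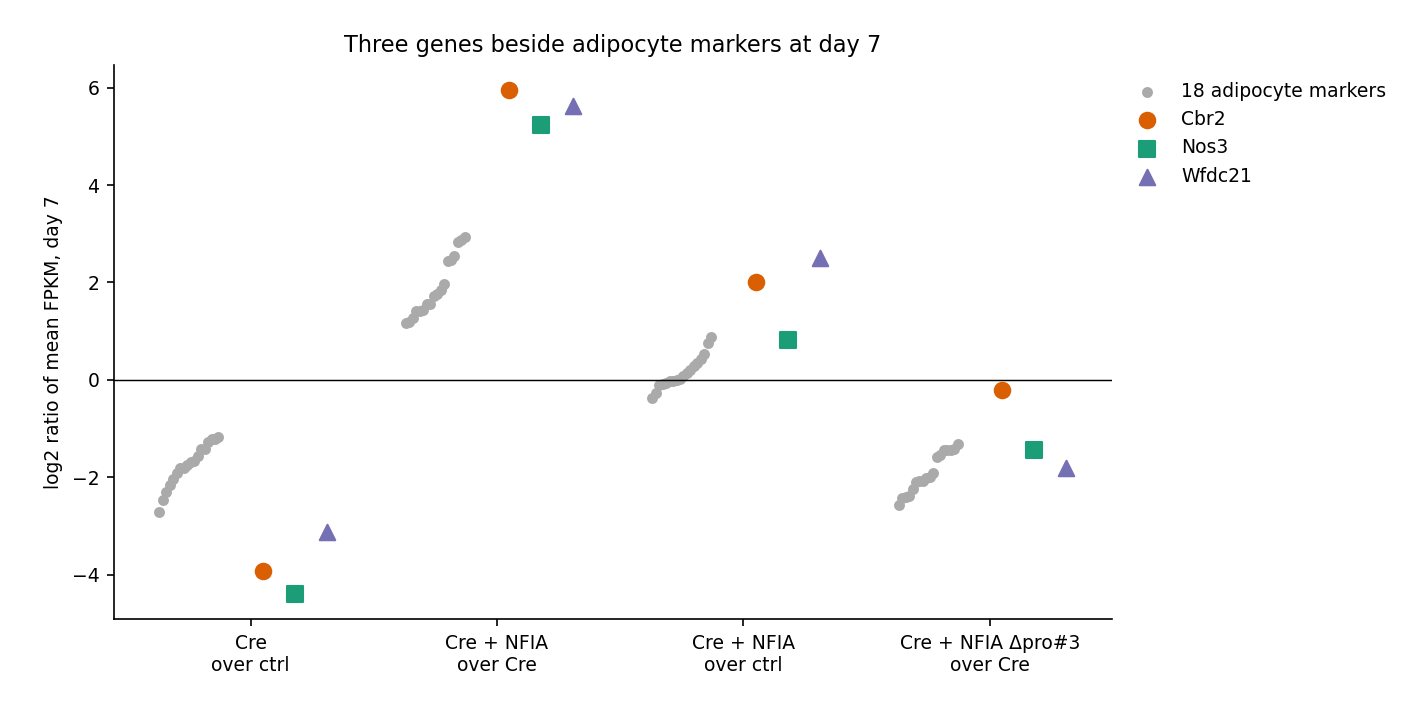
Log2 ratio of mean FPKM at day 7 in 4 comparisons for 18 adipocyte markers (grey, sorted by value) and for Cbr2, Nos3 and Wfdc21. The 3 genes lie outside the markers' range in the comparisons of Cre with ctrl and of Cre + NFIA with Cre, which chose them. Cbr2 alone lies near 0 for the mutant against Cre, where the Cre libraries also took part in the choice.

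Day 0 libraries played no part in the choice of the genes and were tested with limma across all 12640 genes. Wfdc21 was higher with full-length NFIA already before differentiation. It was 5.57, 5.56 and 6.60 FPKM in Cre + NFIA against 0.405, 0.367 and 0.174 FPKM in ctrl, 0.732, 0.372 and 0.358 FPKM with the mutant, and 0.449, 0 and 0 FPKM in Cre-labelled libraries. Every Cre + NFIA library was above every other day 0 library. The log2(FPKM + 1) difference of Cre + NFIA from Cre was 2.61 (SE 0.16, limma adjusted p = 1.27e-06), rank 6 from the highest. In that comparison 0.538% of genes were called, that is, passed an adjusted p of 0.05 and 3-fold, and 1 of the 3 genes, Wfdc21, was among them.

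The mutant did not give this rise. Wfdc21 differed between the mutant and full-length NFIA by -2.22 (SE 0.16, limma adjusted p = 8.22e-06), a comparison in which 0.19% of genes were called, and between the mutant and Cre-labelled libraries by 0.38 (limma adjusted p = 0.116). Between Cre-labelled libraries and ctrl the difference was -0.21 (limma adjusted p = 0.469). Counts were low, with 80 reads in Cre + NFIA, 8 with the mutant, 5 in ctrl and 2 in Cre-labelled libraries over 3 libraries each. The pooled ratio of Cre + NFIA to Cre was 33.6 with a 95% counting interval of 9.001 to 282. Of the marker lists, the adipocyte sum at day 0 was 265 to 276 FPKM in Cre + NFIA against 218 to 237 FPKM in Cre-labelled libraries, and the epithelial sum, nearly all of it Krt19, was 6.46 to 7.25 against 1.21 to 2.21 FPKM. The endothelial sum, largely Cd34, was 238 to 266 against 102 to 125 FPKM. In ctrl at day 0 the adipocyte, epithelial and endothelial sums were 252 to 260, 2.32 to 2.98 and 118 to 153 FPKM. For Cre + NFIA against Cre 7 of 18 adipocyte markers were higher and 0 lower at an adjusted p alone, where 27.6% of all genes passed. Pparg (0.91) and Cebpa (1.17) were among the 7. The part of these lists in the Wfdc21 difference was not tested.

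Cbr2 took a different order at day 0 from that at day 7. It was 18.1, 12.2 and 14.7 FPKM in ctrl, 20.05, 19.0 and 18.4 FPKM in Cre-labelled libraries, 13.2, 12.3 and 11.51 FPKM in Cre + NFIA, and 31.97, 27.5 and 24.1 FPKM with the mutant. The mutant libraries were the highest and the Cre + NFIA libraries overlapped ctrl at the low end. Against Cre-labelled libraries the difference was -0.59 with full-length NFIA (SE 0.13, limma adjusted p = 0.00588). For the mutant it was 0.51 (SE 0.13, limma adjusted p = 0.0199). The mutant exceeded full-length NFIA by 1.10 (SE 0.13, limma adjusted p = 0.000251), or 2.25-fold. None of these reached 3-fold (0.142% of genes were called for the mutant against Cre), and at an adjusted p alone 27.6%, 18.3% and 10.1% of genes passed in these comparisons. The limma adjusted p of the mutant against Cre passed 0.05 without Cre replicate 2 (0.0547) or 3 (0.0578) or without mutant replicate 1 (0.0804) or 2 (0.0570). Cre and ctrl differed by 0.35 (limma adjusted p = 0.162), where 0.0237% of genes were called.

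Nos3 was at or near 0 before differentiation. It had 0 to 5 reads in each day 0 library, and 9 in ctrl, 3 in Cre-labelled libraries, 5 in Cre + NFIA and 3 with the mutant when the 3 libraries of a group were added. A difference was not detectable at this depth (limma adjusted p 0.720 to 0.910 over the 4 comparisons), and no fold is given. Nos3 was among the genes tested only through its day 7 levels.

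Differentiation thus moved Cbr2 up or down by cell type. From day 0 to day 7 its mean rose 3.06-fold in ctrl and 14.98-fold in Cre + NFIA, fell 6.40-fold in Cre-labelled libraries, and fell 10.7-fold with the mutant. In no cell type did the libraries of the days overlap. Only the change with the mutant is between groups that did not choose the genes, and on the log2(FPKM + 1) scale it was -2.997 (SE 0.14, limma adjusted p = 1.38e-12), rank 6 among falls. Here 1.46% of genes were called and 0.316% were called lower. The spread in this test came from all 24 libraries, those that chose the genes included. Over 13 alternatives, among them a fit on only the mutant groups, the limma adjusted p of Cbr2 was at most 1.35e-05. In the same comparison 12 of the 18 adipocyte markers were called higher and 0 lower, with a median of 2.58 against 0.05 over all genes.

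A rule set after these values were seen asked for genes that rose in ctrl and in Cre + NFIA and fell in Cre-labelled libraries and with the mutant, with no overlap between days. It held for 26 of 12640 genes (0.206%). With at least 3-fold in the latter 3 cell types it held for 1 gene, Cbr2, whose log2 changes were 1.54, 3.80, -2.34 and -2.997 in that order of cell types. No fold was asked of ctrl, where Cbr2 was under 3-fold on this scale. With 3-fold asked of ctrl as well the rule would not have held for Cbr2. The values are a description, since day 7 libraries chose Cbr2.

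The change of Nos3 with the mutant over time depended on the scale, and that of Wfdc21 did not pass the test. Nos3 went from 3 reads at day 0 to 45 at day 7 with the mutant, a log2(FPKM + 1) difference of 0.33 (SE 0.11, limma adjusted p = 0.0180) that was under 3-fold, where 41.5% of genes passed an adjusted p alone. Nos3 entered this test only through its day 7 levels in ctrl, Cre and Cre + NFIA, the groups that chose it. Its limma adjusted p was 0.0967 without mutant day 7 replicate 2, 0.0804 without day 7 replicate 3, 0.0518 without day 0 replicate 1, 0.05001 without day 0 replicate 2, and 0.0800 with only the mutant groups in the fit. On recovered reads limma voom, which adds no pseudocount of 1 FPKM, gave 3.67 (adjusted p = 0.00272), so that alternative called it, and the libraries of the days did not overlap. The pooled ratio of day 7 to day 0 was 15.4, with a 95% counting interval of 4.96 to 77.7. Wfdc21 differed by 0.23 (limma adjusted p = 0.467), and its days overlapped. In ctrl, by contrast, the mean of Nos3 was 0.0601 FPKM at day 0 and 17.1 FPKM at day 7, and that of Wfdc21 0.315 and 22.7 FPKM. In Cre-labelled libraries the day 7 means, 0.808 FPKM of Nos3 and 2.60 FPKM of Wfdc21, were still above the day 0 libraries without overlap.

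Nos3 belongs to a family of 3 synthases, of which a different member was detected at each day. Nos2, the inducible synthase, was 8.18 to 16.2 FPKM in the ctrl, Cre and Cre + NFIA libraries and 21.3 to 30.8 FPKM with the mutant at day 0. At day 7 it had at most 7 reads, and at most 0.148 FPKM, in any library. With the mutant its fall was -4.70 (SE 0.14, limma adjusted p = 1.62e-15). Nos1, the neuronal synthase, had at most 6 reads in any library at either day. Nos3 was therefore the only 1 of the 3 above 1 FPKM at day 7, and Nos2 the only 1 at day 0.

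Other nitric oxide genes moved in either direction. Of 34 listed, 24 were tested, and for Cre + NFIA against Cre at day 7, where 3.63% of all genes were called, 0 were called higher and 1 lower, Ddah2, at -1.69 (SE 0.09, limma adjusted p = 4.68e-08). Ddah2 degrades asymmetric dimethylarginine, an endogenous inhibitor of the synthases, and averaged 11.8 FPKM with full-length NFIA against 40.3 FPKM in Cre-labelled libraries. The median over the list was -0.09 against -0.06 over all genes. At an adjusted p alone 5 were higher and 9 lower, where 63% of all genes passed. Among those higher were Cav1 (1.31), a caveolar coat protein that binds the enzyme, Pts (0.88) and Gch1 (0.59), which make the tetrahydrobiopterin cofactor, and Qdpr (0.64), which recycles it. Cav1, Pts and Qdpr had the same order of means over the cell types at day 7 as Nos3, at a smaller size, with Cav1 at 431 FPKM in Cre + NFIA, 318 in ctrl, 174 in Cre-labelled libraries and 138 FPKM with the mutant. Prkg2, a kinase activated by cyclic GMP, was -1.37 and Ass1, which helps regenerate arginine, -1.32. For Cre against ctrl 0 of 24 were called by limma in either direction, where 1.51% of all genes were called, and at an adjusted p alone 7 were higher and 5 lower, where 58.8% of all genes passed.

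Nos3 is best known from endothelium, so endothelial markers were examined. Of 20, 13 were under 1 FPKM in every library and 8 had at most 3 reads in every library. Tie1, Sox17 and Robo4 were at 0 in all 24 libraries, and Cdh5, which joins endothelial cells, had at most 3 reads. The summed level at day 7 was 36.5 to 42.1 FPKM in ctrl, 53.6 to 57.6 in Cre-labelled libraries, 45.1 to 48.7 in Cre + NFIA and 55.7 to 67.9 FPKM with the mutant. Most of this sum was Cd34, also a precursor marker, with means of 28.3 FPKM in ctrl, 41.2 in Cre-labelled libraries, 31.0 in Cre + NFIA and 37.2 FPKM with the mutant. Eng, Kdr and Tek did not follow Nos3. At day 7 Eng averaged 4.49 FPKM in ctrl, 9.70 in Cre-labelled libraries, 7.89 in Cre + NFIA and 16.4 FPKM with the mutant. In that order of cell types Kdr averaged 0.304, 0.741, 1.21 and 3.50 FPKM, and Tek 1.10, 1.88, 0.728 and 1.22 FPKM. Flt1 averaged 0.207, 0.364, 1.07 and 0.475 FPKM in the same order, highest in Cre + NFIA but lowest in ctrl. Sox18 and Pecam1, the latter with at most 19 reads in any library, were higher in the cell types in which Nos3 was high. Sox18, a transcription factor of vessels, was 1.96 to 3.18 FPKM in ctrl and 1.94 to 2.33 FPKM in Cre + NFIA at day 7 and at most 0.327 FPKM in any other library. Pecam1, an adhesion molecule of endothelium, was 0.257 to 0.361 FPKM in ctrl and 0.268 to 0.390 FPKM in Cre + NFIA at day 7 against at most 0.109 FPKM in Cre-labelled libraries and 0.0946 FPKM with the mutant. The part of endothelial cells in the levels of Nos3 was not tested. Of 17 macrophage markers 12 were under 1 FPKM in every library, and 7 of those, among them Adgre1 and Cd163, were at 0 in all libraries. The other 5 had reads in every library. They reached 8.62 FPKM for Cd14, 8.23 for Cd68, 5.71 for Lyz2, 3.64 for Csf1r and 2.38 FPKM for Fcer1g.

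The other carbonyl reductases spanned a smaller fold than Cbr2 at day 7, with Cbr1 at 41.7 to 76.5 FPKM, Cbr3 at 13.2 to 31.2 and Cbr4 at 7.04 to 15.8 FPKM over the means of the 4 cell types. Cbr1 and Cbr4 had the same order of means as Cbr2, highest in Cre + NFIA and lowest with the mutant, whereas Cbr3 was lower in ctrl and Cre + NFIA than in the other cell types. Dcxr, which encodes the xylulose reductase of the uronate pathway, was 27.7 ± 3.17 FPKM in ctrl, 40.6 ± 2.84 in Cre-labelled libraries, 33.5 ± 2.36 in Cre + NFIA and 46.5 ± 5.77 FPKM with the mutant (SD, n = 3). Reads were kept only if they aligned uniquely, which lowers counts where such relatives share sequence.

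Of 33 listed relatives in the short-chain dehydrogenase family, 27 were tested. For Cre + NFIA against Cre at day 7, 2 were called higher and 1 lower, against 3.63% of all genes called, and at an adjusted p alone 19 were higher and 4 lower, against 63% of all genes, with a median of 0.47 against -0.06 over all genes. Hsd11b1, which activates glucocorticoids, rose by 2.97 (SE 0.13, limma adjusted p = 1.32e-08) and Decr1, of mitochondrial fatty acid oxidation, by 1.78 (SE 0.13, limma adjusted p = 3.48e-07). Bdh2, a cytosolic hydroxybutyrate dehydrogenase, fell by 1.75 (SE 0.13, limma adjusted p = 3.27e-07). Hsd11b1 was 37.8 FPKM in ctrl, 12.1 in Cre-labelled libraries, 101 in Cre + NFIA and 6.35 FPKM with the mutant, the same order of means as Cbr2. It was also called higher with full-length NFIA at day 0, by 1.64 (SE 0.10, limma adjusted p = 1.69e-06), as Wfdc21 was and Cbr2 was not. For Cre against ctrl at day 7, 0 relatives were called higher and 1 lower, Decr1, against 1.51% of all genes called, with a median of -0.54 against 0.09 over all genes.

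The whey acidic protein family was mostly silent. Of 27 relatives of Wfdc21, 23 were in the files and 4 were tested. At day 0, where 0.538% of all genes were called for Cre + NFIA against Cre, 1 of the 4 was called, Slpi, a secreted protease inhibitor, which rose by 1.79 (SE 0.25, limma adjusted p = 0.000348). It was 2.78 to 4.82 FPKM in Cre + NFIA against 0.143 to 0.786 FPKM in Cre-labelled libraries. Wfdc12 at 0.74 (limma adjusted p = 5.62e-05) and Wfdc17 at 0.74 (limma adjusted p = 0.00941) were under 3-fold. All 3 were lower with the mutant than with full-length NFIA at an adjusted p alone, as 10.1% of all genes passed there. The median over the 4 was 0.74 against 0.02 over all genes, and the fourth was Wfikkn1 at 0.13. Wfdc17 starts at -42.95 kb from the start of Wfdc21, toward lower coordinates.

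At day 7 these relatives parted from Wfdc21. Wfdc12 was 5.63 ± 1.96 FPKM in ctrl, 1.21 ± 0.549 in Cre-labelled libraries, 4.37 ± 0.549 in Cre + NFIA and 0.0742 ± 0.0644 FPKM with the mutant (SD, n = 3). It kept the split between those pairs of cell types but not the excess over ctrl. Slpi and Wfdc17 were under 1 FPKM in every day 7 library.

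**Figure D3:**
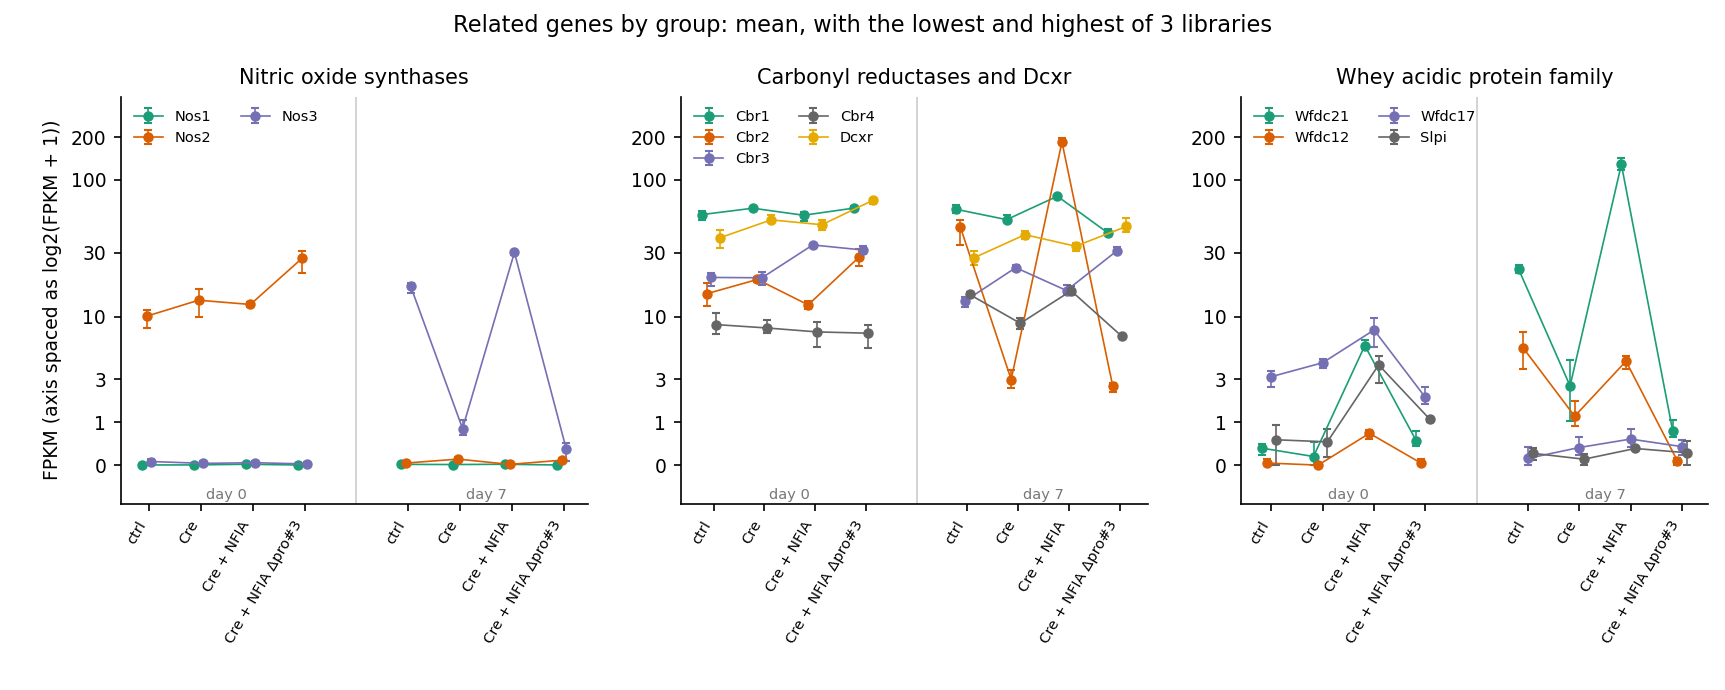
Mean FPKM of related genes in the 8 groups, on an axis spaced as log2(FPKM + 1), with bars from the lowest to the highest of 3 libraries and thin lines that join the groups of 1 gene. Nos2 is detected at day 0 and Nos3 at day 7, Cbr2 spans more than Cbr1, Cbr3, Cbr4 and Dcxr, and Wfdc21 and Slpi are above 2 FPKM at day 0 with full-length NFIA alone.

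Genes that lie near the 3 had smaller differences at day 7. The 3 were chosen for large differences in these comparisons, so nearly any other gene would have smaller ones. Of 11 tested genes that start within 100 kb of Cbr2, 8 near Nos3 and 3 near Wfdc21, 0 were called by limma for Cre against ctrl or for Cre + NFIA against Cre at day 7, where 1.51% and 3.63% of all genes were called, so few calls could arise among so few genes. For Cre + NFIA against Cre their differences were -1.17 (Notum, an extracellular lipase) to 1.46 (Fasn, fatty acid synthase) around Cbr2, -0.73 to 1.12 (Abcb8, a mitochondrial transporter) around Nos3 and 0.05 to 0.20 around Wfdc21. Fasn (limma adjusted p = 4.60e-05) and Abcb8 (limma adjusted p = 4.80e-06) changed in the direction of Cbr2 and Nos3 without reaching 3-fold, and both also fell in Cre against ctrl, by 1.47 and 1.16. Fasn is also 1 of the adipocyte markers. Atg9b, which overlaps Nos3 on the other strand, was 0.433 FPKM in ctrl, 1.23 in Cre-labelled libraries, 0.707 in Cre + NFIA and 1.51 FPKM with the mutant at day 7, so it was lower in the cell types in which Nos3 was high. Reads were counted on the matching strand, so the genes can be told apart. With the mutant from day 0 to day 7, 1 of the 11 genes near Cbr2 was called, Rac3, at -1.66 (limma adjusted p = 3.93e-09).

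**Figure D4:**
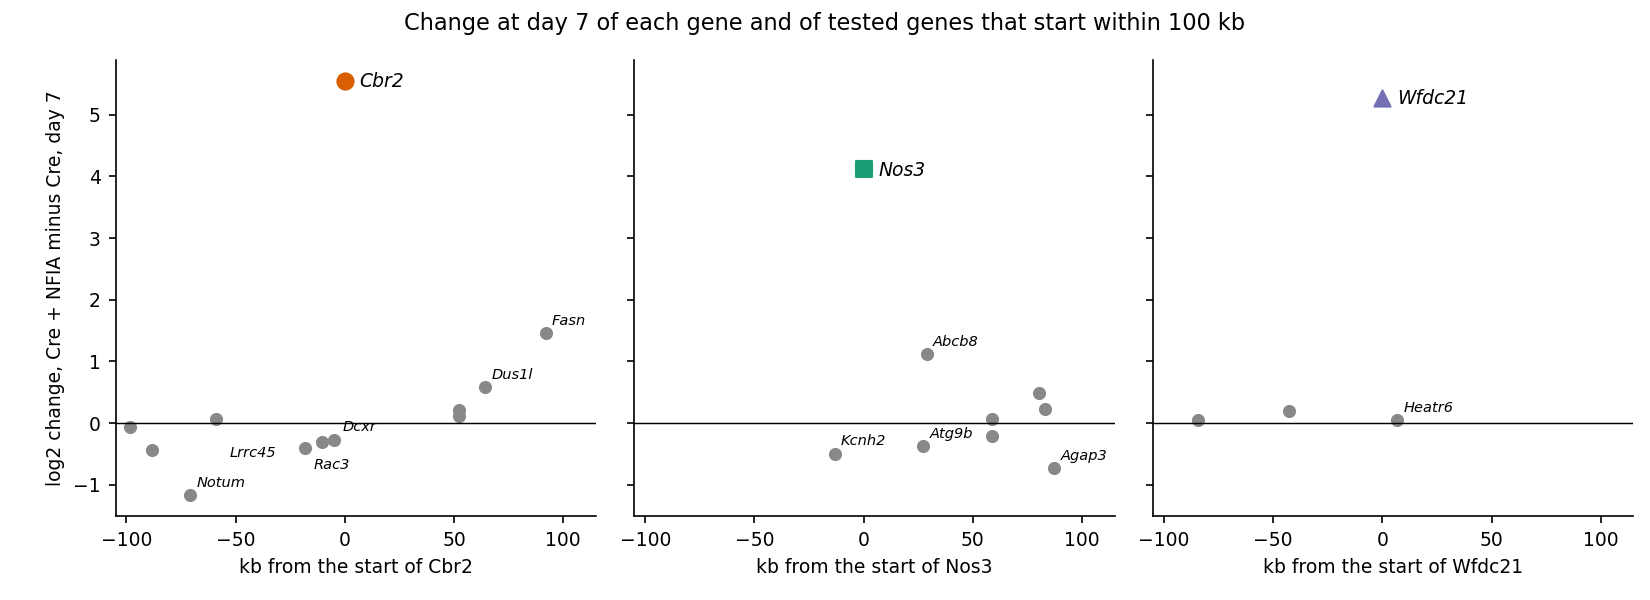
Difference of Cre + NFIA from Cre at day 7 in log2(FPKM + 1) for Cbr2, Nos3, Wfdc21 and tested genes that start within 100 kb, against distance in kb from the start of each (negative, lower coordinate). Neighbours lie between -1.17 and 1.46 and the 3 genes, which were chosen for large differences at day 7, at 5.55, 4.12 and 5.28.

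The likeness between the 3 genes was measured as Pearson's r of log2(FPKM + 1) across libraries, which share groups, days and the adipocyte difference given above. Over 24 libraries r was 0.722 for Cbr2 and Nos3, 0.707 for Cbr2 and Wfdc21, and 0.920 for Nos3 and Wfdc21. Over the 12 day 7 libraries these were 0.983, 0.985 and 0.965. The genes were chosen by their day 7 levels, so a high r between them over these libraries follows from the choice. The 24 libraries include the same ones. Of all tested genes those most like Nos3 over 24 libraries were Chrna2, Cecr2, Tenm4, Rims4 and Aatk (r 0.993 to 0.995). Chrna2, a nicotinic acetylcholine receptor subunit, was 5.68 ± 0.500 FPKM in ctrl, 0.853 ± 0.0975 in Cre-labelled libraries, 9.42 ± 0.450 in Cre + NFIA and 0.130 ± 0.112 FPKM with the mutant at day 7 (SD, n = 3), and at most 1 day 0 library held any read of it.

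Wfdc21 was most like Fmo1, Palmd, Selenbp1, Rhbdl3 and Dhrs7 (r 0.958 to 0.967), of which Fmo1, a flavin monooxygenase, was 1.86 FPKM in ctrl and 3.25 in Cre + NFIA against 0.413 in Cre-labelled libraries and 0.197 FPKM with the mutant at day 7. Cbr2 had the least close likeness, with Gys1, Cth, Apol6, Acsl3 and Poldip2 (r 0.921 to 0.943). Gys1, glycogen synthase, went from 32.8 to 50.5 FPKM in ctrl and from 37.8 to 57.5 in Cre + NFIA, and from 35.6 to 29.4 in Cre-labelled libraries and from 42.2 to 26.4 FPKM with the mutant, the directions of Cbr2 at a smaller size. These lists depend on the measure. Of the 5 genes, Spearman's rank correlation kept 3 for Cbr2, 0 for Nos3 and 1 for Wfdc21, and Pearson's r over day 7 libraries kept 0, 1 and 0.

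In order of level, no neighbouring groups of Cbr2 overlapped apart from ctrl with Cre + NFIA at day 0 and Cre-labelled libraries with the mutant at day 7. For Nos3 the highest 3 groups, Cre + NFIA, ctrl and Cre at day 7, stood apart from each other and from the rest. The order of Wfdc21 began with Cre + NFIA and ctrl at day 7, followed by Cre + NFIA at day 0 (5.91 ± 0.598 FPKM, SD, n = 3), which was above Cre-labelled libraries at day 7 (2.60 ± 1.75 FPKM). Cells with full-length NFIA thus held more Wfdc21 before induction than cells labelled Cre did at day 7, on 80 and 35 reads. The day 7 Cre libraries took part in the choice of the gene, and this difference was not tested.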

How the data were processed

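RNA was sequenced from 24 libraries. The authors aligned paired reads to mm9 with STAR 2.5.3a, kept uniquely aligned reads, took counts of the matching strand, and deposited FPKM per gene and library, so multi-mapping reads of close relatives are lost. From these values whole reads were recovered (100% of values within 0.01 reads), which gave totals of 7732829 to 14622189. A count of 0 allows up to 3 reads, 0.205 to 0.388 RPM, and such limits and intervals cover counting error only. Same-group libraries differed by more than sampling noise, with a chi-square per degree of freedom of 2.21 to 15.9 over 24 pairs.

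Genes at 1 FPKM or more in at least 3 libraries (12640 of 24825) were tested as log2(FPKM + 1) with limma 3.58.1 (R 4.3.3), with a trend and Benjamini-Hochberg adjustment. This scale understates changes of low genes. A call needed an adjusted p under 0.05 and 3-fold. Each day's comparisons were fitted on its own 12 libraries, and the comparison of days on all 24. On simulated data 184 of 200 changed genes were recovered for Cre + NFIA against Cre at day 0 over 12640 genes. These changed genes had a fixed fold and were drawn from genes of higher level than Nos3 and Wfdc21 in Cre at day 0. The share therefore does not apply to Nos3 or Wfdc21. Python 3.11.15 with pandas 2.3.3, numpy 2.4.6, scipy 1.17.1 and matplotlib 3.10.9 did the rest. Alternatives were another pseudocount, no filter, median-of-ratios scaling, limma voom on recovered reads, a replicate block, only the groups compared, an adjusted p alone and leaving out each library.

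The 3 genes and all gene lists were chosen with earlier results of these data known. Beside them the text names Nfia, up to 3 called genes per list and direction for Cre + NFIA against Cre at day 7, defining cell type markers, the 5 genes most like each by Pearson's r, genes within 100 kb, and genes next in rank. Relatives outside that rule (Nos1, Nos2, Cav1, Gch1, Pts, Qdpr, Prkg2, Ass1, Cbr1, Cbr3, Cbr4, Slpi, Wfdc12, Wfikkn1) were chosen after their values were seen. A listed gene is not reported here.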

Additional observations from a re-analysis of the deposited data

Results flagged for a closer look

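The direction of the Cbr2 difference changed between days and between cell types. The change of direction itself, that is, the difference between such differences, was not tested, while the day 0 differences and the change with the mutant over time have their own tests in the text above. All values are differences in log2(FPKM + 1), and in each every library of a group lay on 1 side of the other group. Cre against ctrl was 0.35 at day 0 and -3.54 at day 7. Cre + NFIA against Cre was -0.59 at day 0 and 5.55 at day 7. The Δpro#3 mutant against full-length NFIA was 1.10 at day 0 and -5.70 at day 7. Day 7 against day 0 was 1.54 in ctrl and 3.80 in Cre + NFIA, and -2.34 in Cre-labelled libraries and -2.997 with the mutant. Groups of 3 libraries were too small for a check of single libraries that stand apart.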

How the results depend on the processing

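Of 195 alternative values for 15 tested results of Cbr2, Nos3 and Wfdc21, 187 kept direction and side of the threshold. They include Nos3, which passed the filter only through day 7 libraries of ctrl, Cre and Cre + NFIA. Cbr2 at day 0 passed with an adjusted p alone (-0.59, 0.51 and 1.10), as did Nos3 with the mutant over time (0.33), which limma voom also called (3.67). Nos3 at day 0 turned direction for Cre + NFIA against Cre without Cre replicate 3 (-0.0051) or Cre + NFIA replicate 1 (-0.0045, in a range of -0.0051 to 0.0432), and for the mutant against Cre without Cre replicate 2 (0.0096, in a range of -0.0406 to 0.0096). These rest on 5 reads or fewer a library. The cause of the other changes was not tested. Of 117 values for 9 described day 7 results, 12 moved by more than the spread between replicates and 0 turned direction.

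Counts of called genes were 3, 68, 18 and 24 at day 0 (Cre against ctrl, Cre + NFIA against Cre, the mutant against Cre, the mutant against Cre + NFIA), 184 for the mutant over time, and 191, 459 and 79 at day 7 (Cre against ctrl, Cre + NFIA against Cre, the mutant against Cre). In that order a pseudocount of 0.1 gave 11, 199, 54, 91, 490, 433, 912 and 196, limma voom 16, 241, 76, 125, 597, 507, 996 and 217, and an adjusted p alone 421, 3483, 2311, 1275, 5247, 7430, 7958 and 2238. For Cre against ctrl at day 0 no filter gave 1 and median-of-ratios scaling 1. Leaving out 1 library gave 42 to 128 for the mutant against Cre at day 7, with 42 without mutant replicate 1, 52 without Cre replicate 2 and 128 without Cre replicate 3.

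Same-numbered libraries did not deviate together (r -0.080 to 0.201), so the numbers were not taken as pairs. A replicate block gave 2, 69, 18, 24, 183, 191, 459 and 78 and changed no call of the 3 genes, whose values it left at -2.997 for Cbr2 with the mutant over time and 2.61 for Wfdc21 at day 0. Depth limited Nos3 at day 0 and Wfdc21 outside Cre + NFIA at day 0.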
